A study of Mus musculus with 12 samples.

Results

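Endothelial cells line blood vessels, and 39 genes used to recognise them were followed by gene symbol through 12 RNA sequencing libraries, made from fluorescence-sorted cells of the mouse renal cortex. All 39 were found among the 23378 genes of the deposited table. They were divided by list, the first being 4 genes listed as glomerular endothelial (Ehd3, Kdr, Flt1 and Emcn), called glomerular genes below. The rest were 29 genes shared by most endothelia, and 6 genes more typical of other vessels (Plvap, Aplnr, Vwf, Sox17, Dll4 and Flt4). How specific each listed gene is to its vessels was not tested. The 12 libraries came from C57BL/6 mice of the genetic model nNosCreERT2-mTmG, in which Cre under the control of the neuronal nitric oxide synthase gene turns membrane red fluorescence (tdTomato) into green fluorescence (GFP). Per the labels' protocols, the green sort collected macula densa cells, the salt-sensing cells of the distal nephron, and the most intensely red cells were sorted as control cells to represent distal tubule and collecting duct epithelium. Every other kidney cell type, endothelium included, is red in these mice.

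The groups compared numbered 4: macula densa cells from mice on control diet (2 libraries), macula densa cells from mice on low salt diet together with enalapril, which blocks angiotensin-converting enzyme, in drinking water at 150 mg/L (2 libraries), and control cells from mice on each of these regimens (4 libraries each). Both regimens lasted 14 days. The labels do not say whether replicates are separate animals, so the p-values measure only the spread between these libraries, which may in part be technical.

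The endothelium of the glomerular capillary is thin and perforated by open pores, and it depends on vascular endothelial growth factor from the neighbouring podocytes, which signals through the receptor encoded by Kdr. Ehd3, an endocytic recycling protein, is known as a marker of glomerular endothelium, whereas Plvap forms the diaphragms that close the pores of peritubular capillaries. Endothelial identity is set by ETS factors such as ERG, FLI1 and ETS1, which bind DNA at a GGAA core, and by the SOX factors SOX7, SOX17 and SOX18.

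Total counts per library ran from 4259020 to 14856542, of which the ribosomal RNA-like gene Gm42418 took 53.5% to 65.0%, and nuclear protein-coding genes held 781257 to 2331481. Levels are given as CPM, the usual depth-scaled count, taken on library totals scaled by trimmed means of M values (TMM), and 3 counts were worth 0.231 to 0.734 CPM. Counting error is therefore large for any gene near or below 1 CPM, and intervals and floors below cover counting error only. The green libraries carried 2151 to 3096 CPM over 6 macula densa markers against 43.4 to 437 CPM in the control-cell libraries. Most of each sum was Slc12a1, also a thick ascending limb marker, at 1769 to 2026 CPM and 41.8 to 430 CPM. Nos1 held 100 to 232 CPM in the green and 0.109 to 0.734 CPM in the control-cell libraries, and Pappa2 228 to 774 and 0 to 1.22 CPM. The 8 principal cell markers of the collecting duct, one of the cell types that the control sort was meant to represent, summed to 104 to 900.3 CPM in the control-cell libraries.

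Promoter sequence was available from RefSeq for 21 of the 39 genes (build GRCm38.p6, the 250 bases before a transcription start), and 4 are shown because the corresponding genes were the most prominent in the results: the receptors Kdr and Flt1, the adhesion receptor Adgrf5, and Ramp3, the exception to the common pattern. Capitals mark extended forms of the GGAA core, namely CAGGAA (read as TTCCTG on the other strand), the form AGGAAG (read as CTTCCT) and the form CCGGAA (read as TTCCGG). The first and second of these overlap wherever they share their GGAA.
Kdr (chr5:75978456-75978705, minus strand): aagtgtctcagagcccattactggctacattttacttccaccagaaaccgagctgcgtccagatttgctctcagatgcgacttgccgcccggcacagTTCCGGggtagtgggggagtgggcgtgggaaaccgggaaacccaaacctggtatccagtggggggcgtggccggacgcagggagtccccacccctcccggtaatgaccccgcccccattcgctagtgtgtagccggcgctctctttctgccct
Flt1 (chr5:147726012-147726261, minus strand): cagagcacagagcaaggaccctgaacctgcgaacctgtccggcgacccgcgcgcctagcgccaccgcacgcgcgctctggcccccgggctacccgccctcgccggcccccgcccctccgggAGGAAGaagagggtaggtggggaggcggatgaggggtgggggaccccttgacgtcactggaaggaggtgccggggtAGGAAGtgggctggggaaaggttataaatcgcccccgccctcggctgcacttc
Adgrf5 (chr17:43360181-43360430, plus strand): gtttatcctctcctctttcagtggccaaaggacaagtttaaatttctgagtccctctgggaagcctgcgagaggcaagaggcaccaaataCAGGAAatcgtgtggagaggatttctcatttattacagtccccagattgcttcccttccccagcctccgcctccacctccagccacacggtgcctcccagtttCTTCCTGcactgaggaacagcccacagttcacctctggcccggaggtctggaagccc
Ramp3 (chr11:6658283-6658532, plus strand): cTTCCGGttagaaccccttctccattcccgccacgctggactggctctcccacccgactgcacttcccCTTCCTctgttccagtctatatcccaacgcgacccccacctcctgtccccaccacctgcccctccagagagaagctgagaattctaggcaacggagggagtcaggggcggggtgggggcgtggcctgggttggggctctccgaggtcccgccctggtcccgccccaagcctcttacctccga
Searched on both strands, CAGGAA occurred in 14 of the 28 windows of these 21 genes (50%) and in 25.7% of 32851 windows of the same length, and AGGAAG in 15 windows (53.6%) against 29.5%. CCGGAA occurred in 3 windows (10.7%) against 12%, and the bare core GGAA in 26 windows (92.9%) against 93.4%. These matches describe letters and no binding was measured.

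Endothelial transcripts were abundant in the control cells. Pecam1, an adhesion molecule of endothelial junctions, stood at 136, 123, 82.2 and 7.44 CPM in the control-cell libraries on control diet (replicates 1 to 4) and at 32.05, 74.2, 25.4 and 94.7 CPM in replicates 1 to 4 on low salt with enalapril. The 4 macula densa libraries held 16.7 and 3.503 CPM of it on control diet and 2.11 and 1.31 CPM on low salt with enalapril. Control-cell replicate 4 on control diet thus lay below macula densa replicate 1 on the same diet, and the groups on that diet overlapped, whereas on low salt with enalapril they did not. The 39 genes together made up 1.61%, 1.48%, 0.942% and 0.151% of the nuclear protein-coding counts in the control-cell libraries on control diet and 0.421%, 1.002%, 0.308% and 1.37% in those on low salt with enalapril. In the macula densa libraries they made up 0.216% and 0.0403% on control diet and 0.0231% and 0.0213% on low salt with enalapril. In sorted bulk samples, fewer endothelial cells and less endothelial RNA per cell cannot be told apart.

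**Figure D1:**
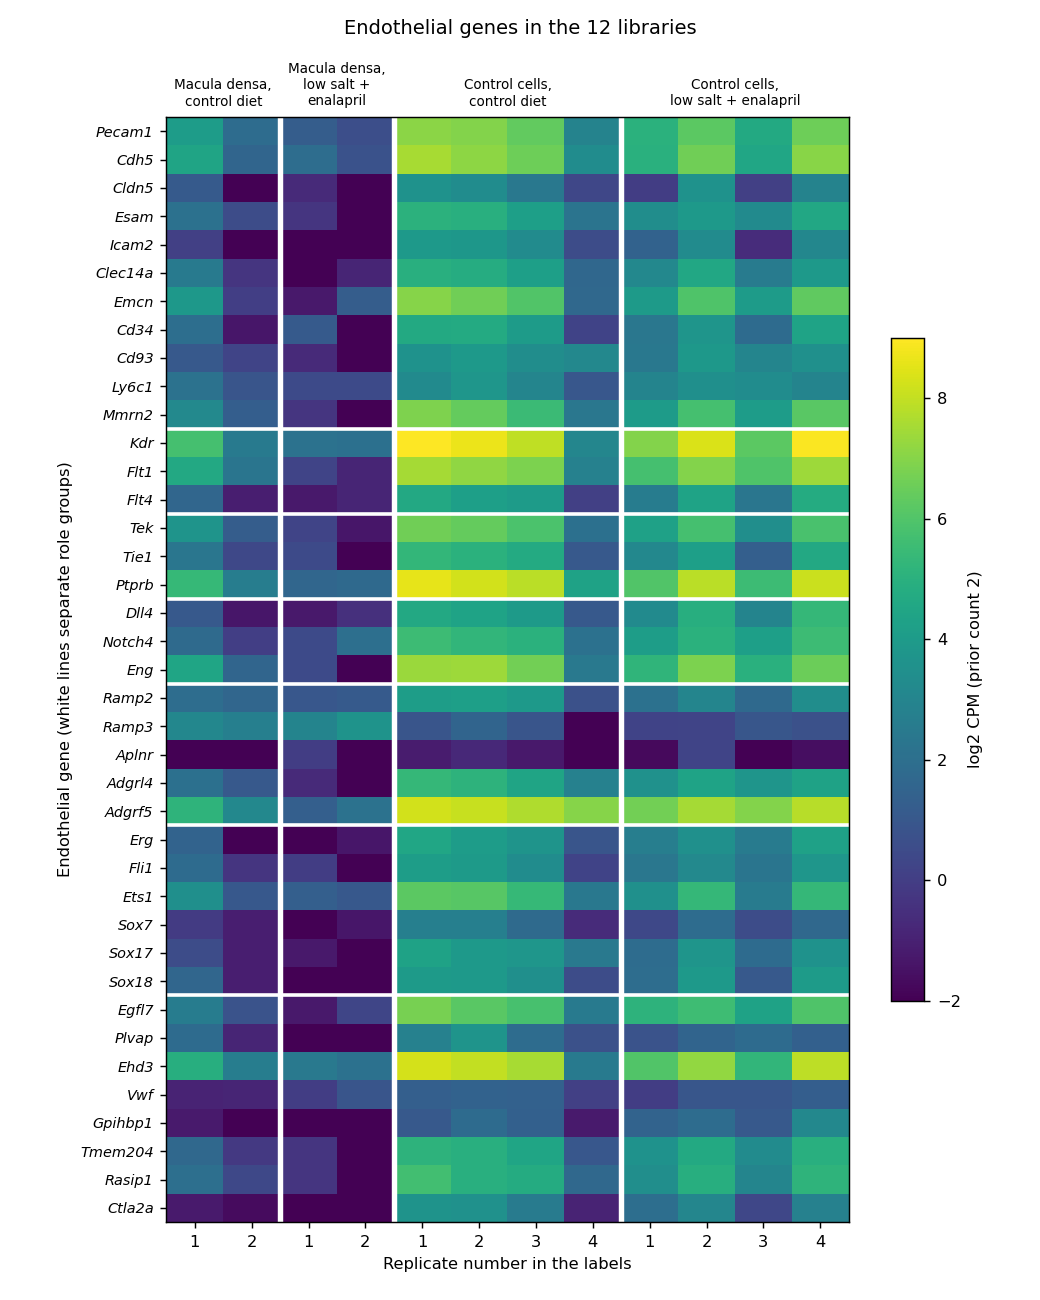
Colour gives log2 CPM (prior count 2) of each of the 39 endothelial genes (rows, grouped by role) in each of the 12 libraries (columns, by group and replicate number). Control-cell replicate 4 on control diet is darker than the other 7 control-cell libraries in most rows, and Ramp3 is the row that is brighter in the macula densa libraries.

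Levels were compared per kilobase of exon in control cells on control diet. Kdr, the main signalling receptor for vascular endothelial growth factor, averaged 32.6 ± 24.2 CPM per kb (SD, n = 4), the first in order, followed by Ehd3 at 28.9 ± 20.2, the TGF beta co-receptor Eng at 26.9 ± 18.6, VE-cadherin (Cdh5) at 25.9 ± 18.1 and Adgrf5 at 25.03 ± 8.48 CPM per kb. These SDs describe spread between libraries and do not test differences between genes measured in the same 4 libraries. Kdr and Adgrf5 have nearly the same exon length (9030 and 9010 bases). Kdr exceeded Adgrf5 in replicates 1 to 3 (507, 414 and 249.9 against 301, 269 and 204 CPM) but not in replicate 4 (8.16 against 128 CPM). The other glomerular genes, Emcn and Flt1, averaged 13.6 ± 9.86 and 8.37 ± 5.65 CPM per kb, below several shared genes. Of the genes of other vessels, Dll4 averaged 4.09 ± 2.59, Plvap 3.09 ± 2.45, Sox17 2.81 ± 1.30 and Flt4 1.83 ± 1.22 CPM per kb. Vwf, the clotting factor carrier stored in endothelium of larger vessels, averaged 0.127 ± 0.0505, and the apelin receptor Aplnr 0.0531 ± 0.0417 CPM per kb. These genes ranked 24 or lower of the 39, as did several shared genes, among them Ramp2, Erg and Notch4. Aplnr never exceeded 1 CPM in any library and was the 1 gene of the 39 that did not pass the filter on low counts, which left 38 for testing.

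Ehd3 stood at 309.7, 256, 187 and 5.58 CPM in the control-cell libraries on control diet (replicates 1 to 4) and at 64.6, 149.6, 38.01 and 238 CPM in those on low salt with enalapril. Plvap held 6.998, 12.6, 3.52 and 1.45 CPM, then 1.54, 2.69, 3.36 and 2.34 CPM, in the same libraries. Ehd3 therefore exceeded Plvap in CPM in each of these 8 libraries. Its exons are longer (6558 against 1987 bases), which favours Ehd3 in CPM. The gap was smallest in replicate 4 on control diet, at 54 against 14 counts. Within a library, Ehd3 reached 2.27, 2.08, 2.28 and 0.75 times the Pecam1 level on control diet and 2.02, 2.02, 1.496 and 2.51 times on low salt with enalapril, so 7 of the 8 control-cell libraries held 1.496 or more and replicate 4 on control diet stood apart. The ratio of Plvap to Pecam1 was 0.0429 to 0.194 on control diet and 0.0247 to 0.132 on low salt with enalapril, highest in replicate 4 of the first group, where Plvap rested on few counts.

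The 4 glomerular genes supplied 35.1%, 34.0% and 33.2% of all counts of the 39 genes in replicates 1 to 3 of the control cells on control diet, and 8.84% in replicate 4. They supplied 34.5%, 35.0%, 30.9% and 39.9% in the 4 libraries on low salt with enalapril. The share was 33.3% and 24.4% in the macula densa libraries on control diet and 22.4% and 22.9% in those on low salt with enalapril, the last 2 resting on 245 and 280 counts. The 29 shared genes held 56.7% to 65.8% in the control-cell libraries other than replicate 4 on control diet, where they held 87.4%. Kdr alone gave 4639 of the 10319 glomerular gene counts in control-cell replicate 1 on control diet, so the share is not a measure of glomerular content. In replicate 4 on that diet Flt1 stood at 0.931 times Pecam1 (1.19 to 1.40 in replicates 1 to 3), and Kdr at 1.10 times (3.04 to 3.72).

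**Figure D2:**
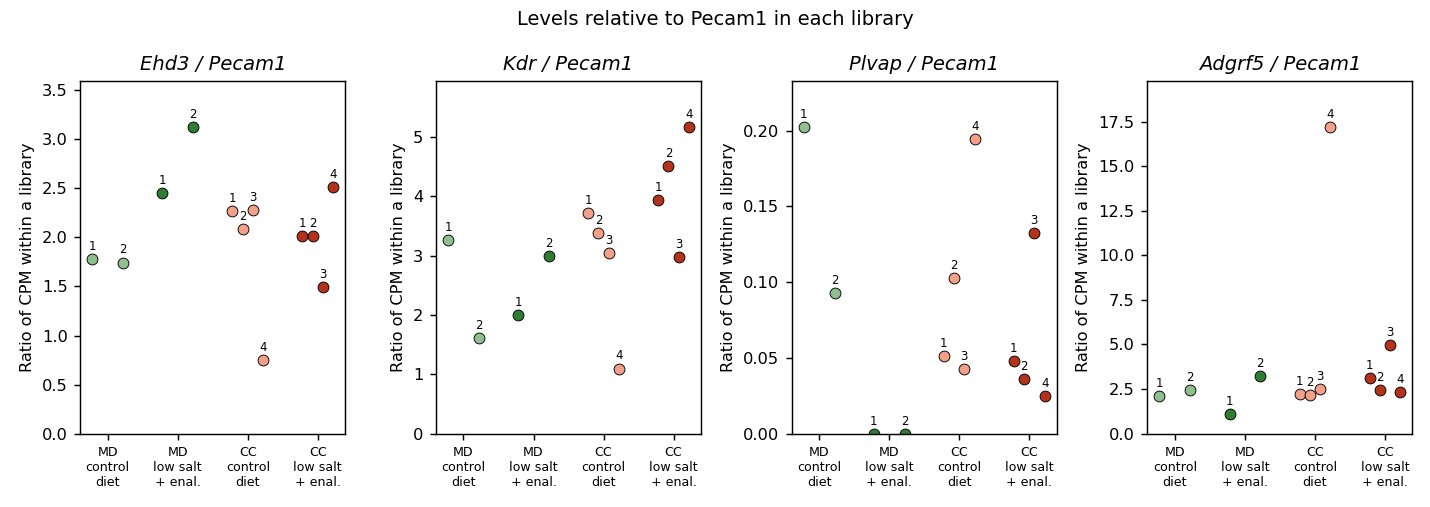
Points give the CPM of Ehd3, Kdr, Plvap and Adgrf5 divided by that of Pecam1 in the same library, by group (MD, macula densa cells; CC, control cells) with replicate numbers beside them. Control-cell replicate 4 on control diet has the lowest Ehd3 ratio (0.75) and an Adgrf5 ratio of 17.2, against 2.36 to 4.96 in the control cells on low salt with enalapril.

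Endothelial levels varied widely within groups. In control-cell replicate 4 on control diet, 34 genes with a mean of at least 5 CPM in that group stood at a median of 0.0756 times the mean of replicates 1 to 3, with quartiles of 0.0509 and 0.113. The deficit was uneven: Kdr was at 0.0209 times, while Cd93, a receptor of endothelial adhesion, was at 0.698 times and Adgrf5 at 0.496 times. Adgrf5 held 301, 269, 204 and 128 CPM in the 4 libraries, and Cd93 held 11.8, 14.7, 10.4 and 8.57 CPM, so both remained near the other replicates where Pecam1 and Kdr did not. In the low salt with enalapril group, replicate 1 stood at a median of 0.366 and replicate 3 at a median of 0.264 times the mean of replicates 2 and 4.

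Markers of other cells also differed between these libraries, not all in the same way. The summed level of 12 podocyte markers, all in the table, was 1704, 1356, 878 and 66.2 CPM in the control-cell libraries on control diet, in replicate order, and 183, 1357, 260 and 1136 CPM on low salt with enalapril, so the libraries low in endothelial genes were also low in podocyte genes. Over the same libraries the 8 principal cell markers summed to 134, 303, 463 and 900.3 CPM and then 364, 187, 104 and 284 CPM, and the 8 intercalated cell markers to 33.1, 112, 162 and 451 CPM and then 135, 74.9, 98.3 and 113 CPM. Replicate 4 on control diet was the highest for both, whereas on low salt with enalapril the principal cell sum was lowest in replicate 3, a library low in endothelial genes. The 6 thick ascending limb markers summed to 118, 170, 511 and 876 CPM and then 739, 372, 984 and 258 CPM. On each diet their sum was highest in the control-cell library with the lowest endothelial sum. The sum of the mesangial and pericyte markers (10 genes) differed less, between 149 and 550.4 CPM in the 8 libraries. Myh11 was its largest member in each of them, at 74.5 to 305 CPM, and single members differed more. On control diet Itga8 held 22.3, 43.5, 16.8 and 1.14 CPM in replicate order, and Des 7.65, 21.1, 6.67 and 0.723 CPM. Pdgfrb was also lowest in replicate 4 on that diet, whereas Gata3 was highest there, at 31.2 CPM. The sum therefore does not show that mesangial content was steady. Blood cells also express Pecam1, Cd34 and Fli1: the 9 leukocyte markers found summed to 2.31 to 145 CPM in control-cell libraries and to 2.13 to 7.39 CPM in macula densa libraries, where Tyrobp was at 0 throughout, and the 3 platelet markers found never summed above 2.67 CPM. The 5 erythroid markers summed to 0 to 94.7 CPM and the 8 proximal tubule markers to 40.2 to 194 CPM over all libraries. The part of these other cells in the endothelial values was not tested.

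**Figure D3:**
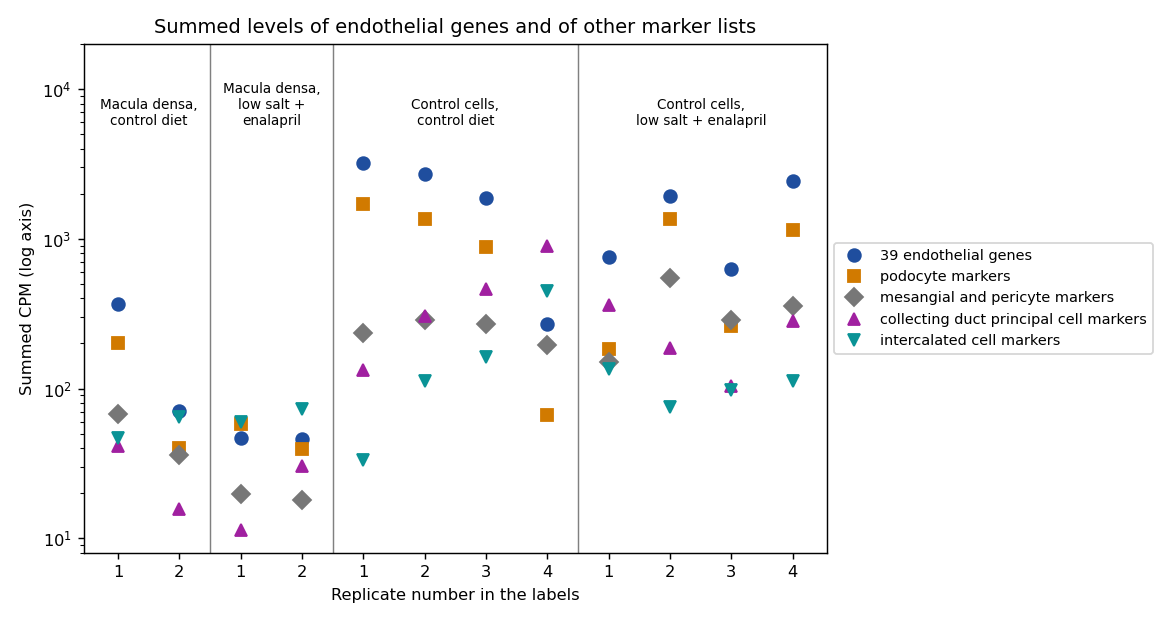
Points give the summed CPM (log axis) of the 39 endothelial genes and of 4 marker lists of other kidney cells in each library, by group and replicate number. Control-cell replicate 4 of the control diet has low endothelial and podocyte sums (269 and 66.2 CPM) and a principal cell sum of 900.3 CPM.

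Comparing macula densa with control cells over both diets, 37 of the 38 genes tested were lower in macula densa cells and 1, Ramp3, was higher at an edgeR adjusted p under 0.05. Across all 14180 genes tested, 13.9% were lower and 7.48% higher. With library totals in place of TMM, calls over all genes moved from 1061 higher and 1966 lower to 1827 higher and 1450 lower and the all-gene median from -0.06 to 0.14, while 34 endothelial genes passed as lower and Ramp3 as higher. The median log2 fold change of the 38 was -4.48 against -0.06 over all genes, or -4.27 with the 5 genes that had no count in macula densa cells on low salt with enalapril set at their bounds. Libraries of the cell types did not overlap on either diet for 10 lower genes (7.6% of all genes) and for Ramp3 (6.02%). Leaving out macula densa replicate 2 on low salt with enalapril reduced the count from 38 to 24 (11.7% of all genes against 21.3%), and limma voom called 12 (18.7%).

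All 11 surface and junction genes were lower in this comparison, with a median log2 fold change of -4.23, or -4.08 with Icam2 at its bound. VE-cadherin (Cdh5, chromosome 8, 104101625 to 104144511), which holds endothelial cells together, stood at 189, 140.0, 95.9 and 9.81 CPM in control cells on control diet and at 31.0, 97.4, 22.5 and 130.3 CPM on low salt with enalapril. It held 21.1 and 2.77 CPM in macula densa cells on control diet and 3.64 and 1.48 CPM on low salt with enalapril. Only control-cell replicate 4 fell into the macula densa range. The averaged log2 fold change was -3.99 (SE 0.89, edgeR adjusted p = 0.00855). For Pecam1 it was -4.08 (SE 0.80, edgeR adjusted p = 0.00457). Emcn, the endothelial sialomucin endomucin, held 127, 98.9, 64.8 and 3.10 CPM and then 15.5, 62.7, 16.4 and 80.5 CPM in control cells, against 14.4 and 0.815, then 0.192 and 2.13 CPM in macula densa cells. Its log2 fold change was -4.23 (SE 1.09, edgeR adjusted p = 0.0168).

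The 3 VEGF receptors were all lower. Kdr (chromosome 5, 75932827 to 75978458), whose promoter is shown above, held 507, 414, 249.9 and 8.16 CPM in control cells on control diet and 126, 334, 75.8 and 489 CPM on low salt with enalapril. Macula densa libraries held 54.5 and 5.62 CPM, then 4.21 and 3.94 CPM. The log2 fold change averaged over the diets was -4.63 (SE 1.05, edgeR adjusted p = 0.00914). Flt1, a receptor that binds the same ligand with little signalling of its own, had 184, 146, 115 and 6.92 CPM and then 54.6, 124, 63.2 and 166 CPM in control cells, against 24.5, 4.64, 0.958 and 0.328 CPM in the 4 macula densa libraries. Its log2 fold change was -5.14 (SE 0.91, edgeR adjusted p = 0.00272). Flt4, the VEGF-C receptor known mainly from lymphatic vessels, differed by -4.50 on the log2 scale (SE 1.03).

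The angiopoietin receptor Tek, its partner Tie1 and the phosphatase Ptprb, which restrains TEK, were also all lower, with a median log2 fold change of -4.49. Ptprb had 380.4, 307, 229.8 and 20.1 CPM in control cells on control diet, 64.9, 231, 45.8 and 279.8 CPM on low salt with enalapril, and 41.6, 6.11, 2.87 and 3.12 CPM in the macula densa libraries (edgeR adjusted p = 0.00515). Macula densa replicate 1 on control diet was the highest of its kind and above control-cell replicate 4. Of the Notch and TGF beta family genes, the arterial ligand Dll4, the receptor Notch4 and Eng were all lower. Eng had 163, 166, 101 and 5.27 CPM and then 36.8, 114, 31.1 and 93.1 CPM in control cells, and 21.6, 2.77, 1.149 and 0 CPM in macula densa cells (log2 fold change -5.06, SE 1.05, edgeR adjusted p = 0.00623). Other annotated genes, mostly of small RNAs, overlap Eng and Ptprb on the same strand, so these counts are less certain.

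All 6 transcription factor genes were lower, with a median of -4.42, or -3.61 with Sox18 at its bound. Ets1, the most abundant of them, stood at 74.6, 70.1, 40.9 and 5.06 CPM and then 11.1, 40.2, 5.67 and 39.5 CPM in control cells, and at 10.9, 1.79, 2.30 and 1.80 CPM in macula densa cells (log2 fold change -3.24, SE 0.83, edgeR adjusted p = 0.0162). Its control-cell range overlapped that of macula densa cells. Erg, Fli1, Sox7 and Sox17 differed by -3.46 to -5.24 on the log2 scale. Sox18 had no counts in macula densa cells on low salt with enalapril.

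Among the 8 remaining genes, all lower, were Ehd3 and Plvap. Ehd3 (chromosome 17, 73804134 to 73832094) had 29.7 and 6.11 CPM in macula densa cells on control diet and 5.17 and 4.10 CPM on low salt with enalapril, a log2 fold change of -4.06 (SE 0.94, edgeR adjusted p = 0.0104) against the control-cell values given above. Plvap had 3.39 and 0.326 CPM, then 0 and 0 CPM, in the macula densa libraries, with an edgeR adjusted p of 0.0201. On low salt with enalapril it was at least 4.65-fold lower than in control cells, taking 3 counts per library as the floor. Vwf, with 0.308 to 1.64 CPM in macula densa and 0.769 to 2.54 CPM in control cells, differed least among the lower genes (log2 fold change -1.5, SE 0.47).

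Leaving out single libraries ended several of these calls. Without macula densa replicate 2 on low salt with enalapril, the edgeR adjusted p was 0.0560 for Cdh5, 0.0581 for Kdr, 0.0619 for Ehd3, 0.0552 for Emcn, 0.0818 for Plvap and 0.0785 for Ets1. Without macula densa replicate 2 on control diet it was 0.0560 for Ehd3, 0.0611 for Emcn and 0.0674 for Ets1. Without macula densa replicate 1 on low salt with enalapril it was 0.0712 for Emcn, 0.0603 for Plvap and 0.0568 for Ets1. The calls of Pecam1, Ptprb, Eng, Adgrf5 and Ramp3 held in each of the 12 such fits.

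**Figure D4:**
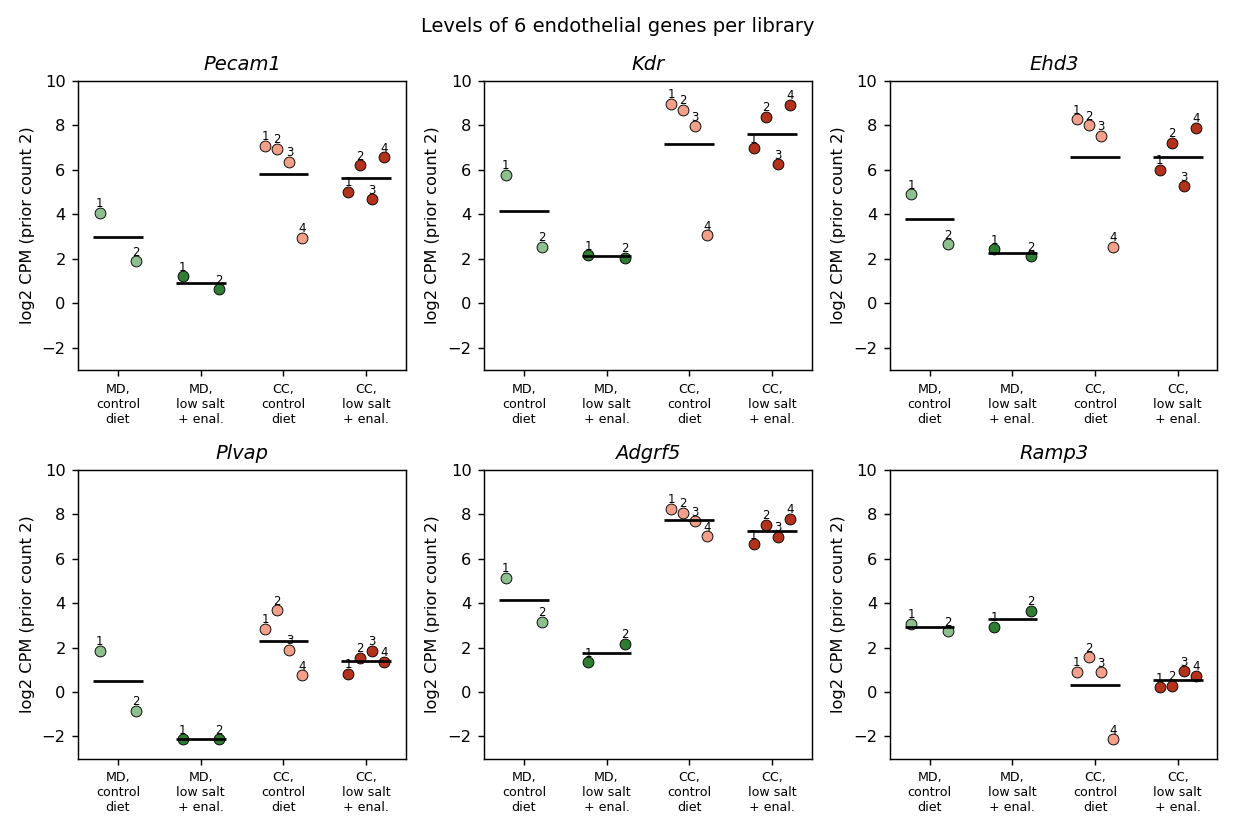
Points give log2 CPM (prior count 2) of 6 endothelial genes per library, numbered by replicate, and lines give group means (MD, macula densa cells; CC, control cells). Pecam1, Kdr and Ehd3 fall in control-cell replicate 4 on control diet, Adgrf5 stays above every macula densa library, and Ramp3 is higher in all 4 macula densa libraries than in any control-cell library.

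Adgrf5, an adhesion G protein-coupled receptor listed here with the endothelial genes, had the smallest adjusted p among the 38 genes in this comparison. Its control-cell values were 301, 269, 204 and 128 CPM on control diet and 99.4, 182, 126 and 223 CPM on low salt with enalapril, against 34.9 and 8.63, then 2.30 and 4.27 CPM in macula densa cells. No library overlapped on either diet, and the log2 fold change was -4.47 (SE 0.47, edgeR adjusted p = 8.46e-05). A small nuclear RNA gene lies within Adgrf5 on the same strand. Adgrf5 did not follow Pecam1 in control-cell replicate 4 on control diet, at 17.2 times its level, against 2.19 to 2.49 times in replicates 1 to 3. That library also had the highest intercalated cell marker sum (451 CPM). Whether cells other than endothelium supplied Adgrf5 counts in the control sort was not tested.

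Ramp3 and Ramp2 encode accessory proteins that turn the calcitonin receptor-like receptor (Calcrl) into receptors for adrenomedullin. Ramp2, the endothelial form, held 16.9, 18.1, 15.05 and 1.45 CPM and then 4.07, 7.83, 3.15 and 10.4 CPM in control cells, and 3.59, 2.85, 1.72 and 1.97 CPM in macula densa cells. Its log2 fold change was -1.89 (SE 0.58, edgeR adjusted p = 0.0352). Ramp3 (chromosome 11, 6658521 to 6677475) went the other way, with 8.21 and 6.44, then 7.47 and 12.3 CPM in macula densa cells and 1.64, 2.72, 1.62 and 0, then 0.922, 0.979, 1.68 and 1.42 CPM in control cells. It was higher in all 4 macula densa libraries than in any control-cell library, by 2.63 on the log2 scale (SE 0.49, edgeR adjusted p = 0.00364). Calcrl itself was lower in macula densa cells (log2 fold change -4.39, SE 0.77), with 5.44, 1.87, 1.149 and 0 CPM there. The ligand gene Adm was lower too (-2.82, SE 0.52), with 0.410 CPM or less in macula densa cells on control diet. On low salt with enalapril alone it did not pass (-1.57, SE 0.72, edgeR adjusted p = 0.197), with 0.766 and 0.492 CPM in macula densa cells. A gene on the opposite strand overlaps the start of Ramp3, and whether counting used strand is not stated.

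In mice on control diet alone, of 38 genes 9 passed, all lower in macula densa cells (Adgrf5, Adgrl4, Cd93, Ctla2a, Egfl7, Esam, Notch4, Sox17 and Vwf), against 3.92% of all genes lower and 6.61% changed in either direction. The median log2 fold change was -3.18 against -0.05 over all genes, and 11 genes did not overlap between the libraries on the lower side (28.9%, against 16.7% of all genes). None of the 4 glomerular genes passed, 7 of the 29 shared genes did, and 2 of the 5 genes of other vessels did, while the medians were -3.29, -3.13 and -3.31. Pecam1 differed by -3.11 (SE 1.03, edgeR adjusted p = 0.0884), Ehd3 by -3.41 (SE 1.26, edgeR adjusted p = 0.123) and Ramp3 by 2.27 (SE 0.68, edgeR adjusted p = 0.0667). Without control-cell replicate 4, 36 of the 38 passed (17.7% of all genes), 35 of them lower, and Pecam1 reached an edgeR adjusted p of 0.00641 and Ehd3 of 0.00869. The count was 0 without macula densa replicate 2 (0.755% of all genes), 3 without macula densa replicate 1 (1.61%), 4 without any one of control-cell replicates 1 to 3, and 5 without control-cell replicate 2 on low salt with enalapril. With library totals in place of TMM, the split of all calls moved from 382 higher and 556 lower to 542 higher and 328 lower, the all-gene median from -0.05 to 0.12, and 6 endothelial genes passed.

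On low salt with enalapril, 22 of the 38 passed: 21 were lower in macula densa cells, against 4.13% of all genes, and Ramp3 was higher, against 3.15%; in either direction 7.27% of all genes passed. At an unadjusted p under 0.05 there were 36 of 38, against 25.3% of all genes, and on control diet also 36, against 24.2%. The median log2 fold change was -5.70, or -5.11 with 5 genes at their bounds, against -0.06 over all genes. Libraries did not overlap for 36 lower genes (94.7%, against 19.5% of all genes), Vwf being the lower exception. The 21 lower genes comprised 2 of the 4 glomerular genes (Kdr and Flt1), 17 of the 29 shared genes and 2 of the 5 genes of other vessels, with medians of -5.57, -5.69 and -5.88, or -5.57, -4.79 and -5.70 with genes at 0 counts at their bounds. In macula densa cells Sox18, Icam2, Gpihbp1, Ctla2a and Plvap had no counts, and they were at least 17.3-, 9.72-, 7.72-, 9.25- and 4.65-fold lower than in control cells. Erg rested on 1 count in macula densa cells against 349 in control cells, a ratio of 125 with an exact 95% counting interval of 22.2 to 4937. In these macula densa libraries the paralogue Ly6c2 had 1 count beside 13 of Ly6c1, and the paralogue Ctla2b had 2 beside 0 of Ctla2a. Control cells on this diet had 154 counts of Ctla2a and 13 of Ctla2b. How reads were assigned between these paralogues was not tested, so the bound for Ctla2a is less certain.

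The low salt with enalapril count also hung on single libraries. Control-cell replicate 4 of the control diet, once left out, gave 35 (13.5% of all genes); that library entered through the shared estimate of spread, and 13 without control-cell replicate 3 on that diet. It was 4 and 2 without macula densa replicates 1 and 2 (3.69% and 1.22% of all genes), and 8 without control-cell replicate 2 or replicate 4 of the same diet. limma voom called 2 (3.64% of all genes). With library totals in place of TMM, calls over all genes moved from 446 higher and 585 lower to 736 higher and 392 lower, the all-gene median from -0.06 to 0.16, and 20 endothelial genes passed. Pecam1 (log2 fold change -5.05, SE 1.22, edgeR adjusted p = 0.0307) rose to an adjusted p of 0.105 and 0.196 without macula densa replicates 1 and 2, and to 0.0554 and 0.0563 without control-cell replicates 2 and 4. Ramp3 (2.99, SE 0.72, edgeR adjusted p = 0.0296) rose to between 0.0569 and 0.192 when either macula densa library or any one of control-cell replicates 1, 2 and 4 was left out.

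**Figure D5:**
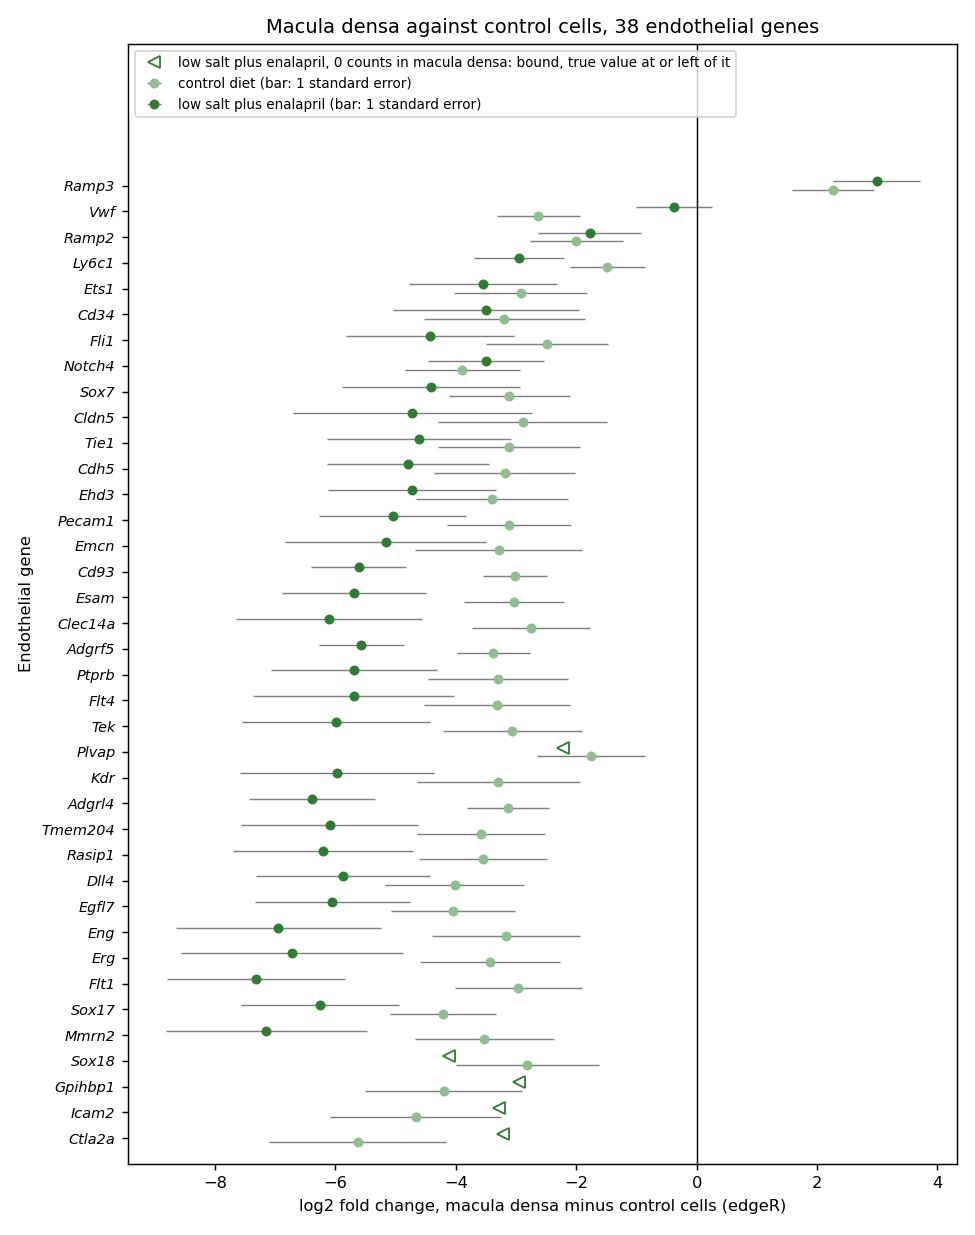
Points give the edgeR log2 fold change of macula densa against control cells for the 38 genes tested, on each diet, with bars of 1 standard error; open triangles mark the 5 genes with no counts in macula densa cells on low salt with enalapril, drawn at their bounds. Ramp3 lies to the right of 0 on both diets (2.27 and 2.99), and the other 37 lie to the left.

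The endothelial genes in macula densa libraries were mostly those of 1 library. Macula densa replicate 1 on control diet held 369.6 CPM over the 39 genes, against 70.4 CPM in replicate 2 and 46.9 and 45.9 CPM on low salt with enalapril, and 11 genes reached 10 CPM in it, against 0, 0 and 1 in the others. The labels give it the same number as control-cell replicate 2. The next ratios cover only the 34 genes with a mean of at least 5 CPM in control cells on control diet. That filter leaves out genes low in control cells, Ramp3 among them, which had 8.21 against 2.72 CPM in this pair. Against control-cell replicate 2, the 34 genes stood at a median of 0.136 times with quartiles of 0.116 and 0.155, from 0.0178 for Ctla2a to 0.311 for Ly6c1. The other 3 same-numbered pairs had medians of 0.0309, 0.0164 and 0.00242. In that macula densa library Ehd3 was at 1.78 and Kdr at 3.26 times Pecam1, beside 2.08 and 3.37 times in the control-cell library. Podocyte markers summed to 201 CPM in it, against 39.8, 57.7 and 39.4 CPM in the other macula densa libraries; their part in the endothelial values was not tested.

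No endothelial gene passed the edgeR threshold for diet. In control cells 0 of 38 passed with edgeR or limma voom, against 0.00705% of all genes with each, and 0 with the DESeq2 Wald test, against 0.522%; 0 had an edgeR unadjusted p under 0.05, against 6.45%. The median log2 fold change of low salt with enalapril against control diet was -0.57 (all genes -0.04), and between -0.95 and -0.25 when single libraries were left out. The 3 smallest p-values belonged to Plvap (-1.35, SE 0.70, edgeR adjusted p = 0.865), Ramp2 (-1.01, SE 0.58, edgeR adjusted p = 0.903) and Gpihbp1, which anchors lipoprotein lipase to capillaries (1.09, SE 0.70, edgeR adjusted p = 0.942). Plvap had 3.52 to 12.6 CPM in replicates 1 to 3 on control diet, 1.45 in replicate 4, and 1.54 to 3.36 CPM on the other diet. No gene separated the libraries of the diets without overlap, against 2.09% of all genes on the lower and 2.1% on the higher side. These results do not show that the levels were equal, since Pecam1 ran from 7.44 to 136 CPM within a single diet.

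In macula densa cells 0 of 38 passed the edgeR threshold for diet, against 0% of all genes, while 12 had an unadjusted p under 0.05 (31.6%, against 11.2% of all genes). The median log2 fold change was -2.70, or -2.55 with genes at 0 counts on low salt with enalapril at their bounds or, where no bound could be set, left out, and -1.03 without replicate 1 on control diet. Libraries did not overlap for 23 lower genes (60.5%, against 21.8% of all genes) and for Vwf on the higher side (18.8%). The smallest p-values were those of Adgrf5 (-2.71, SE 0.67, edgeR adjusted p = 0.218), Adgrl4 (-3.92, SE 1.19, edgeR adjusted p = 0.297) and Flt1 (-4.51, SE 1.45, edgeR adjusted p = 0.312). The DESeq2 Wald test, which called 0.656% of all genes, called 2 of these, Adgrf5 (adjusted p = 0.0195) and Flt1 (adjusted p = 0.0309), a fit of the macula densa libraries alone called 1 (0.927% of all genes), and limma voom called 0 (0.0282%). A test of whether diet acted differently in macula densa and control cells passed for 0 of 38, and 5 had an unadjusted p under 0.05 (13.2%, against 7.03% of all genes), with DESeq2 and limma voom calling 0 as well.

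Genes outside the 39 were followed in 3 lists, to be read against the 13.9% of all genes that were lower and the 7.48% that were higher. Of 6 further glomerular endothelial genes, 5 were lower in macula densa cells over both diets, among them Plat, tissue plasminogen activator (log2 fold change -5.37, SE 1.09, edgeR adjusted p = 0.00545), and the transcription factor gene Gata5, which had 23.6, 22.3, 19.3 and 0.103 CPM in control cells on control diet. Sost did not pass (-4.25, edgeR adjusted p = 0.104). Of 23 further endothelial genes tested, 21 were lower, and the exceptions were Ephb4 (-0.18, edgeR adjusted p = 0.717) and Nrp1 (-1.61, edgeR adjusted p = 0.132), both of which held at least 27.9 CPM in every macula densa library. Of 9 ligand genes tested, 6 were lower: Vegfa (-1.65), Vegfc, Angpt2 (-4.83), Adm, Jag1 and Jag2. Vegfd, a ligand of FLT4, was higher (3.28, SE 0.51, edgeR adjusted p = 0.00114), with 0.821 and 2.85, then 4.98 and 5.91 CPM in macula densa cells and 0 to 0.667 CPM in control cells. No gene of these lists passed for diet in either cell type.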

How the data were processed

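Expression in 12 libraries was deposited as estimated counts, 1 row per gene. Of its values 14.8% were not whole, and they were rounded before testing. STAR 2.61, Partek and mm10 are named in the submitters' processing notes; the counting tool and its use of strand are not given in the sources used here. Libraries were stranded total RNA made at the same time, per the labels' protocols. No column lacked a sample (0 columns). Symbol, start and end matched GENCODE M21 (GRCm38) for 23351 of 23378 rows once 1 was taken from each end, and positions and exon lengths are from that annotation. Of the 39 genes, 8 overlap another gene on the same strand and 13 on the opposite strand, so their counts are less certain.

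The members and lists were chosen with earlier results of these data known. Genes were kept by filterByExpr (count minimum 10, total minimum 15; 14180 genes) of edgeR 4.0.16 in R 4.3.3. One quasi-likelihood fit with TMM scaling and a coefficient per group covered all libraries. P-values were Benjamini-Hochberg adjusted over all genes at 0.05. Log2 CPM used a prior count of 2. A group with no counts was set at a floor of 3 counts per library. Full statistics were given for members past the threshold, in the averaged comparison for the most abundant of each role with Pecam1, Cdh5, Kdr, Ehd3, Emcn and Plvap, and where none passed for the 3 smallest p. The values of Flt1, Flt4, Vwf, Ramp2 and Ramp3 there were added after the values were seen.

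On simulated counts with 200 genes changed 4-fold, 89.5% were recovered in the averaged cell comparison (13564 genes), 37.5% in the macula densa diet comparison (13601 genes) and 79% in the control-cell diet comparison (13569 genes). The changed genes were drawn only from those above a minimum mean count, starting in every library from their mean over all libraries. Recovery of endothelial genes at their low counts in macula densa cells was not simulated. Alternatives used DESeq2 1.42.0, limma 3.58.1 (voom with sample weights), library totals or DESeq2 size factors, no mitochondrial and ribosomal RNA genes (130 rows), other filters, fits, blocks and thresholds, and left out each library in turn. Figures were drawn with matplotlib. Counts of every replicate pair differed by more than sampling noise (chi-square per degree of freedom of 9.37 or more).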

Additional observations from a re-analysis of the deposited data

Results flagged for a closer look

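In groups of 4 libraries, 12 of 78 gene-by-group sets held 1 library far from the other 3 by a gap test at the 95% level, where chance gives 3.9. In all 12 it was control-cell replicate 4 on control diet, on the low side. Its log2 CPM was 2.84 for Flt1 (6.85 to 7.53 in the other 3), 2.05 for Tek, 1.06 for Tie1 and 0.08 for Flt4, receptors of growth factors. It was 2.54 for Ehd3 (7.55 to 8.28 in the other 3), 2.46 for Eng (6.66 to 7.38 in the others) and 2.09 for Notch4. It was 0.55 for Sox18, 0.74 for Ramp2, 0.21 for Cd34, 0.99 for Tmem204 and 0.08 for Vwf. Genes of 1 library are not independent, so 12 flags are not 12 separate departures.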

How the results depend on the processing

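No count, median or named value of the endothelial genes changed direction; over all genes, library totals in place of TMM turned the sign of the median in the 3 cell comparisons. Shares in brackets are of all genes. Of the endothelial genes called on control diet (9; 6.61%), the count was 28 with the DESeq2 Wald test (14.1%), 20 with limma voom (13.5%), 3 in a fit of only the groups compared (3.54%), 2 at a threshold of 0.01 (1.7%), and 0 to 36 when single libraries were left out. On low salt with enalapril (22; 7.27%) it was 35 with the DESeq2 Wald test (13.6%), 2 with limma voom (3.64%), 3 at 0.01 (1.77%), and 2 to 35 without single libraries. Averaged over the diets (38; 21.3%) it was 12 with limma voom (18.7%) and 24 to 38 without single libraries. For diet in macula densa cells (0) it was 2 with the DESeq2 Wald test (0.656%) and 1 in a fit of those groups only (0.927%), for 19 genes tested. Where 1 library was left in a group, it was assumed to vary like the other groups.

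Numbers in the labels were tried as a replicate block, although they were not shown to pair the libraries: correlations of deviations for the 4 shared description numbers were 0.227, -0.0183, 0.0753 and -0.0371, and those by title number ran from -0.377 to 0.278. With the replicate block by description number, which left out the 4 control-cell libraries without a partner (control-cell replicate 4 on control diet among them), 38 genes were called for control diet (16.2%), 37 for low salt with enalapril (16%) and 38 averaged (26.5%). With the replicate block by title number, 2 (2.67%), 5 (2.79%) and 33 (13.5%) were called. The cause of these differences was not tested. In the macula densa libraries 4 to 25 of the 39 genes had 3 or fewer counts, which limits the precision of their values.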
